A study of Mus musculus with 22 samples.

Results

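The genes described here build or drive the sperm tail: tektins, outer dense fibre and fibrous sheath proteins, axonemal dyneins, central pair and radial spoke proteins, CatSper and other ion channels, and factors of tail assembly. Members were a list of 43 gene symbols matched to the named rows of the expression table. No measured value entered the match, although the list was chosen with earlier results of these data known. Of the 43, 36 were on the array, out of 15780 named genes in all. Dnah3, Dnah7a, Dnah17, Catsper4, Fsip2, Cfap44 and Slc9c1 found no match and were not analysed here.

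RNA of male mice aged 2 months was hybridised to 22 Affymetrix arrays. Ts43H males, called trisomic here, have 3 copies of the stretch of chromosome 17 next to its centromere, and siblings labelled t121/D17 served as euploid controls. Liver, pre-mid-pachytene spermatocytes and spermatids were measured on 3 arrays per genotype and mid-late-pachytene spermatocytes on 2, the germ cells having been sorted by flow cytometry. The question of the series was how the extra chromosome segment changes expression in meiotic cells, with liver as a somatic tissue. The labels do not give the ends of the segment, here taken as the first 30 Mb of chromosome 17. They also do not name the animals behind the arrays of a group, so every p-value measures only spread between arrays. That spread was pooled over all 8 groups, liver included, and not taken from the compared groups alone.

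A sperm tail is a motile cilium with extra sheaths. Its core is an axoneme of doublet microtubules stiffened by tektins and bent by dynein arms, under the control of the central pair, the radial spokes and the nexin-dynein regulatory complex. Outer dense fibres, a fibrous sheath and a sheath of mitochondria wrap that core, while CatSper calcium channels, the potassium channel KCNU1 and the soluble adenylyl cyclase ADCY10 switch on vigorous beating. Transcription of many of these genes is known to start in meiosis, long before the tail is built in spermatids.

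Values are log2 intensities, so a difference of 1 is a doubling. Values under 3 are called the background range. A gene was tested in a comparison where its mean over the compared arrays was at least 4, with limma, a linear model fitted across all genes that moderates each gene's spread. It counts as called where the p-value after Benjamini-Hochberg adjustment over all genes tested was under 0.05. Arrays of the same group correlated across genes with r between 0.9883 and 0.9971. Hepatocyte markers had a median between 16.24 and 16.34 in the liver arrays and between 2.28 and 2.50 in the germ cell arrays. Pachytene markers had a median between 10.48 and 10.98 in the pre-mid-pachytene arrays, 13.97 and 14.30 in the mid-late-pachytene arrays and 13.24 and 13.66 in spermatids. One feature of the sorted cells bears on much of what follows: 9 of 10 elongating spermatid markers, protamines and transition proteins among them, were above the background range in the pre-mid-pachytene arrays. The median of that list lay between 13.49 and 14.16 there, between 8.73 and 10.11 in the mid-late-pachytene arrays and between 13.51 and 14.42 in spermatids. The remaining marker, Car4, was in the background range in all 6 germ cell groups.

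Most of the tail genes were in the background range in liver and above it in germ cells. In euploid liver 28 of the 36 had a mean in that range, against 0 in each germ cell group. Over all genes the share was 39.8% in euploid liver and 38.4% to 40.2% in the germ cell groups. Ropn1l, Ift27 and Catsper2 were well above that range in euploid liver, with means of 10.43, 8.88 and 6.01. The median of the 36 gene means was 2.46 in euploid liver, 8.79 in euploid pre-mid-pachytene spermatocytes, 11.55 in euploid mid-late-pachytene spermatocytes and 12.52 in euploid spermatids. The trisomic medians were 2.54, 8.52, 11.33 and 12.47 in the same order. The number of genes with a mean of at least 8 went from 24 to 35 to 36 over the 3 germ cell stages in both genotypes.

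Between euploid pre-mid-pachytene and mid-late-pachytene spermatocytes 35 of the 36 genes (97.2%) changed, where 78.6% of the 8626 genes tested did. Of the 35, 29 were higher and 6 lower, against 42.3% and 36.3% of all genes tested. The median change was 2.55 for the tail genes and 0.14 for all genes tested. Of 10 pachytene markers tested, 9 were higher and 0 lower at this step, with a median change of 2.75. From mid-late-pachytene spermatocytes to spermatids 22 of 36 changed, 61.1% against 64.5% of all genes tested, a share close to the background. Of these 22, 19 were higher and 3 lower, against 29.7% and 34.8%, with medians of 0.68 and -0.13. When each array was centred on its own median the split was 15 higher and 5 lower. Centring by itself moved the median of all genes by -0.30 at that step. Spermatids had 35 of the 36 genes higher than pre-mid-pachytene spermatocytes, where 47.9% of all genes tested were higher and 84.7% changed in either direction. The 3 comparisons share arrays and are not independent of each other. In RNA from sorted populations, a larger share of cells that express a gene and more RNA per cell cannot be told apart.

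**Figure D1:**
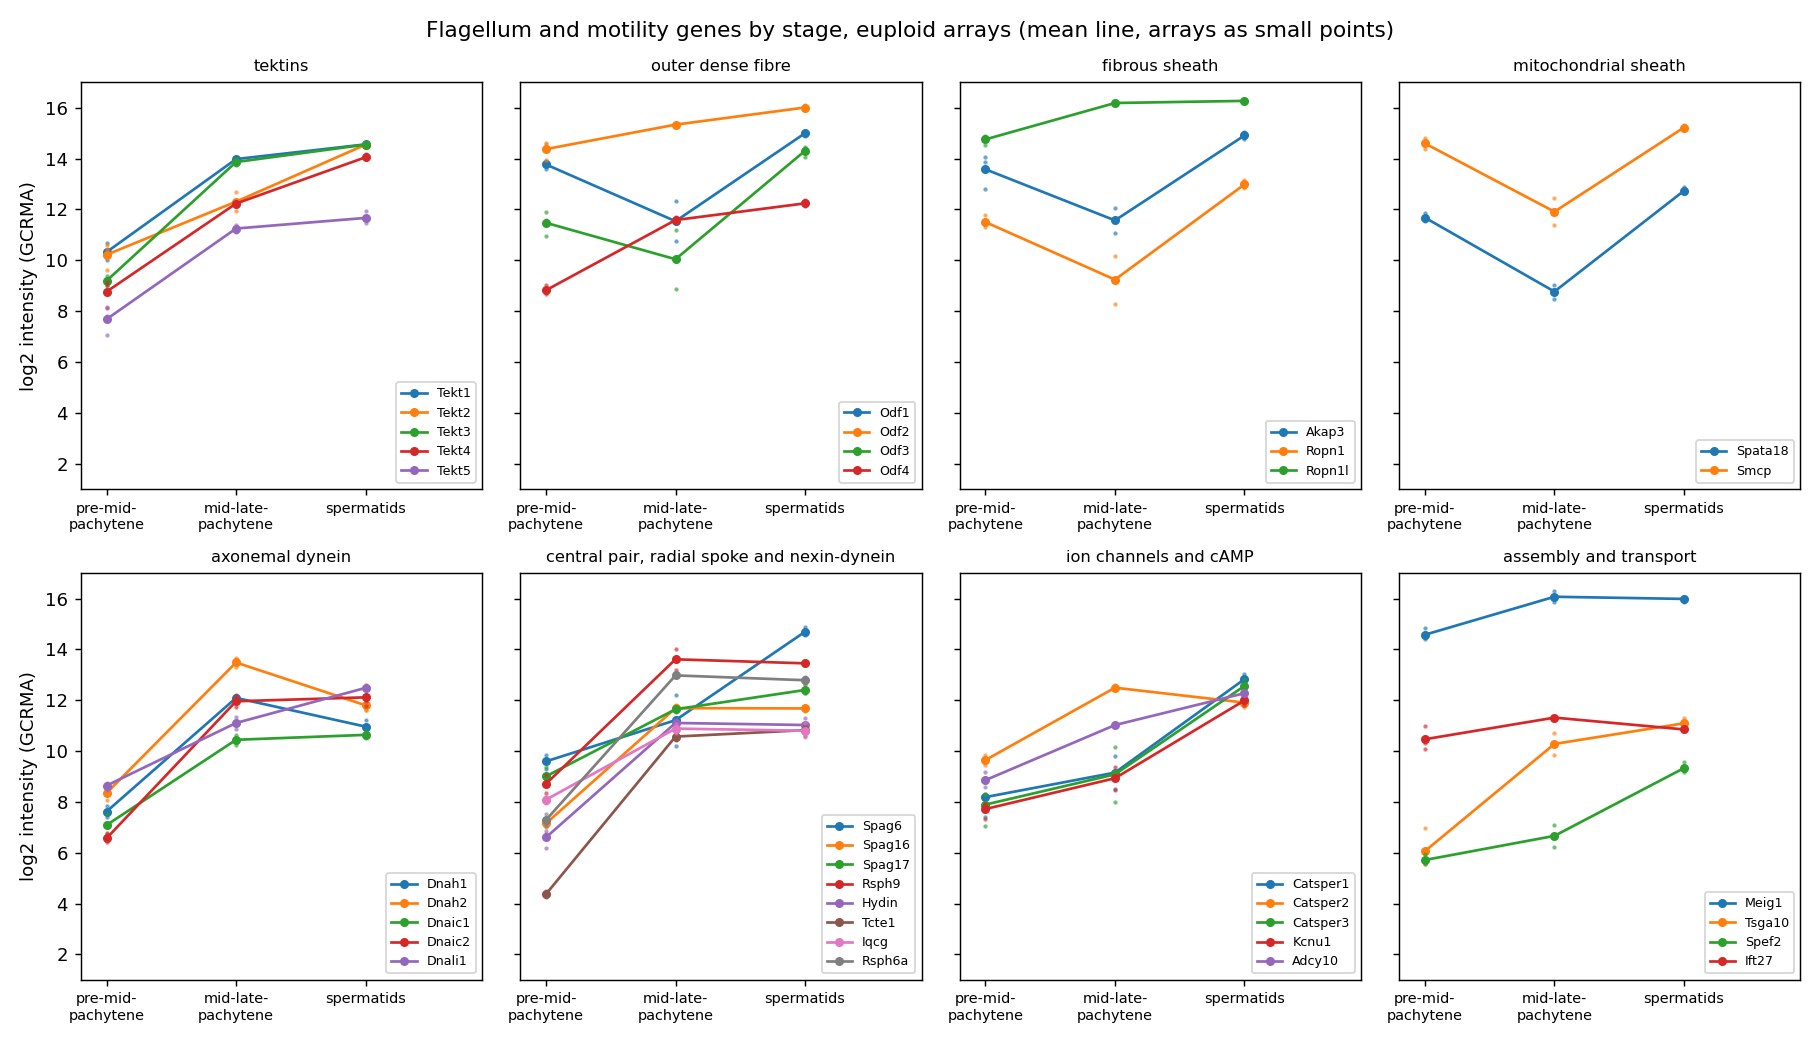
Level of the 36 genes (log2 intensity, vertical axis) in the euploid arrays of the 3 germ cell stages, in 1 panel per role. Large points joined by lines are group means over 3, 2 and 3 arrays and small points are single arrays. Tektins, dyneins and central pair genes climb between the pachytene groups, whereas Odf1, Odf3, Akap3, Ropn1, Smcp and Spata18 dip and return.

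The motor and its regulators gave the largest rises between the pachytene groups. All 5 dynein genes and all 8 genes of the central pair, radial spokes and nexin-dynein complex were higher in mid-late-pachytene spermatocytes, with median changes of 4.47 and 4.52. Tcte1, a subunit of the nexin-dynein complex, was at 4.38, 4.26 and 4.47 in the euploid pre-mid-pachytene arrays and at 10.70 and 10.44 in the mid-late-pachytene arrays. Its euploid spermatid arrays stood at 10.85, 11.01 and 10.60. Tcte1 was thus barely above the filter at the first stage and near its spermatid level at the next, a rise of 6.20 (SE 0.17, limma adjusted p = 1.09e-15, fold 73.4).

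Rsph6a, a radial spoke head protein of sperm, had 7.04, 7.50 and 7.32 in the pre-mid-pachytene and 12.95 and 13.00 in the mid-late-pachytene euploid arrays, and 12.65, 12.89 and 12.81 in spermatids. The first group lay far below the others, with a rise of 5.69 (SE 0.20, limma adjusted p = 1.70e-14). Dnaic2, an intermediate chain of the outer dynein arm, went from 6.52, 6.40 and 6.78 to 11.72 and 12.19, and had 11.95, 12.61 and 11.77 in spermatids. Its rise was 5.39 (SE 0.22, limma adjusted p = 1.49e-13), and the spermatid arrays overlapped the mid-late-pachytene ones. Rsph9 (4.90), the central pair genes Spag16 (4.53) and Hydin (4.50) and the dynein heavy chains Dnah2 (5.14) and Dnah1 (4.47) also rose by more than 4.

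Both dynein heavy chains of the list, Dnah1 and Dnah2, were highest in mid-late-pachytene spermatocytes. Dnah2 had 8.33, 8.09 and 8.62 in the pre-mid-pachytene arrays, 13.65 and 13.32 in the mid-late-pachytene arrays and 11.60, 12.19 and 11.61 in the spermatid arrays of euploid males. The groups did not overlap, and Dnah2 rose by 5.14 (SE 0.21) and then fell by 1.68 (SE 0.21, limma adjusted p = 1.52e-06). Dnah1 had 7.39, 7.63 and 7.84, then 12.002 and 12.18, then 10.93, 11.23 and 10.71. It fell by 1.13 at the second step (SE 0.19, limma adjusted p = 3.63e-05). Catsper2, a pore subunit of the CatSper channel, was the remaining gene with this course. Its euploid values were 9.43, 9.66 and 9.84, then 12.39 and 12.59, then 12.05, 11.93 and 11.73, and it fell by 0.59 at the second step (SE 0.19, limma adjusted p = 0.0109). That fall did not pass without the second euploid mid-late-pachytene array (-0.49, limma adjusted p = 0.0946).

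A further 14 genes rose between the pachytene groups and did not change by the test after that. They were Tekt1, Tekt3 and Tekt5 among the tektins, the outer-arm chains Dnaic1 and Dnaic2, the central pair and spoke genes Spag16, Hydin, Rsph9 and Rsph6a, the regulatory complex genes Tcte1 and Iqcg, the sheath gene Ropn1l and the assembly genes Meig1 and Ift27. Their second-step changes ran from -0.46 for Ift27 to 0.68 for Tekt3. Tekt3, a filament protein of the doublet wall, had 8.98, 9.40 and 9.20, then 14.003 and 13.73, then 14.51, 14.57 and 14.57. From pre-mid-pachytene spermatocytes to spermatids that is a rise of 5.36 (SE 0.34), fold 41.1. Ift27, a subunit of the intraflagellar transport train, had the smallest change over the same span, 0.39 (SE 0.20, limma adjusted p = 0.0820). It passed without the third euploid pre-mid-pachytene array (0.65, limma adjusted p = 0.00265) and was at -0.27 after quantile normalization.

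Another 12 genes rose at both steps: Tekt2, Tekt4, Odf2, Odf4, Dnali1, Catsper1, Kcnu1, Adcy10, Spag6, Spag17, Tsga10 and Spef2. Their second steps ran from 0.66 for Odf4 to 3.68 for Catsper1, with Spag6 (3.48, SE 0.40), Kcnu1 and Spef2 (2.67, SE 0.33) next in order. Catsper1, which lines the pore of the calcium channel, had 7.40, 8.93 and 8.23 in the pre-mid-pachytene arrays, 9.79 and 8.51 in the mid-late-pachytene arrays and 13.01, 12.59 and 12.88 in the spermatid arrays of euploid males. The pachytene groups overlapped, and Catsper1 rose by 0.96 at the first step (SE 0.42, limma adjusted p = 0.0449) and by 3.68 at the second (SE 0.42, limma adjusted p = 4.34e-07). Kcnu1 rose by 1.21 (SE 0.28) and then by 3.06 (SE 0.28). Catsper3, another pore subunit, changed by 1.19 at the first step (SE 0.54, limma adjusted p = 0.0521) and rose by 3.48 at the second (SE 0.54, limma adjusted p = 1.67e-05).

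Some of these smaller steps depended on single arrays. Without the first euploid mid-late-pachytene array the first step of Catsper1 was 0.32 (limma adjusted p = 0.564) and that of the central pair gene Spag6 was 0.62 (0.101). The step of Catsper1 was 0.57 (0.222) without the first and 0.99 (0.0695) without the third euploid pre-mid-pachytene array. Without the second euploid mid-late-pachytene array Spef2, a tail assembly factor, was at 0.51 (0.251), while Catsper3 passed at 2.27 (0.00126). Catsper3 also passed without the second (1.40, 0.0428) or the third (1.40, 0.0412) euploid pre-mid-pachytene array. At the second step Tsga10, a sperm tail protein, was at 0.38 (0.418) without the first euploid mid-late-pachytene array and at 0.71 (0.0971) without the third euploid spermatid array. Odf2 was at 0.70 (0.0591) and 0.65 (0.0844) without the first or the second euploid mid-late-pachytene array, and its call was lost as well without the third euploid spermatid array (0.63).

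Of the 9 outer dense fibre, fibrous sheath and mitochondrial sheath genes 6 fell at the first step, while Odf2 (0.96), Odf4 (2.76) and Ropn1l (1.43) rose. Odf1 and Odf3 of the outer dense fibres, Akap3 and Ropn1 of the fibrous sheath and both mitochondrial genes, Smcp and Spata18, were lower in mid-late-pachytene than in pre-mid-pachytene spermatocytes and higher again in spermatids. Spata18, a gene of mitochondrial quality control, had 11.63, 11.85 and 11.55, then 9.05 and 8.49, then 12.67, 12.63 and 12.90 in the euploid arrays. No 2 stages overlapped. It fell by 2.91 (SE 0.25, limma adjusted p = 3.89e-09) and rose by 3.97 (SE 0.25, limma adjusted p = 2.94e-10).

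Smcp, a cysteine-rich protein of the sperm mitochondrial capsule, had 14.61, 14.81 and 14.37, then 12.45 and 11.37, then 15.19, 15.15 and 15.33. The stages did not overlap, with a fall by 2.69 (SE 0.28) and a rise of 3.31 (SE 0.28). Odf1, a main outer dense fibre protein, had 13.80, 13.90 and 13.60, then 12.32 and 10.75, then 15.04, 14.87 and 15.08. It fell by 2.23 (SE 0.33) and rose by 3.46 (SE 0.33), again without overlap.

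Ropn1, the ropporin that docks on the kinase anchors of the fibrous sheath, had 11.31, 11.76 and 11.43, then 10.18 and 8.30, then 12.95, 12.83 and 13.18. Its first mid-late-pachytene array was far above the second and still below every pre-mid-pachytene array. It fell by 2.26 (SE 0.42, limma adjusted p = 7.74e-05) and rose by 3.75 (SE 0.42). Akap3, one of those anchors, fell by 2.01 (SE 0.32) and rose by 3.34 (SE 0.32). Odf3 had 10.96, 11.89 and 11.57, then 11.20 and 8.88, then 14.39, 14.07 and 14.46. Its pachytene groups overlapped, and its fall by 1.43 (SE 0.45, limma adjusted p = 0.00701) was lost without the second euploid mid-late-pachytene array (-0.27, limma adjusted p = 0.503). Its rise of 4.26 into spermatids (SE 0.45) was the largest of that step.

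The elongating spermatid markers followed the same course as these 6 genes. Of 9 such markers tested in euploid arrays, 9 were lower in mid-late-pachytene than in pre-mid-pachytene spermatocytes. In spermatids 9 were higher than in mid-late-pachytene spermatocytes. Of all genes tested, 36.3% were lower at the first step and 29.7% higher at the second. Their summed level, as log2, lay between 17.31 and 17.57 in the euploid pre-mid-pachytene arrays, between 13.28 and 14.44 in the mid-late-pachytene arrays and between 17.69 and 17.97 in spermatids. The round spermatid markers did not share the first fall. Of 10 tested, 4 were higher and 2 lower in mid-late-pachytene spermatocytes, against 42.3% and 36.3% of all genes tested. Of the 4 Sertoli cell markers tested, 4 were lower there, and of 8 early meiotic markers tested 7 were lower and 1 higher. The part of other cells in the levels of the 6 genes was not tested. With trisomic arrays in place of euploid ones, a comparison added after the data had been seen, 29 genes rose and 5 fell at the first step. At the second, 21 rose and 2 fell. They shared 33 and 20 of their calls with the euploid steps. In euploid arrays 78.6% and 64.5% of all genes tested changed at these steps. The shares over all genes in trisomic arrays are not given here, so these counts cannot be set against a background.

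**Figure D2:**
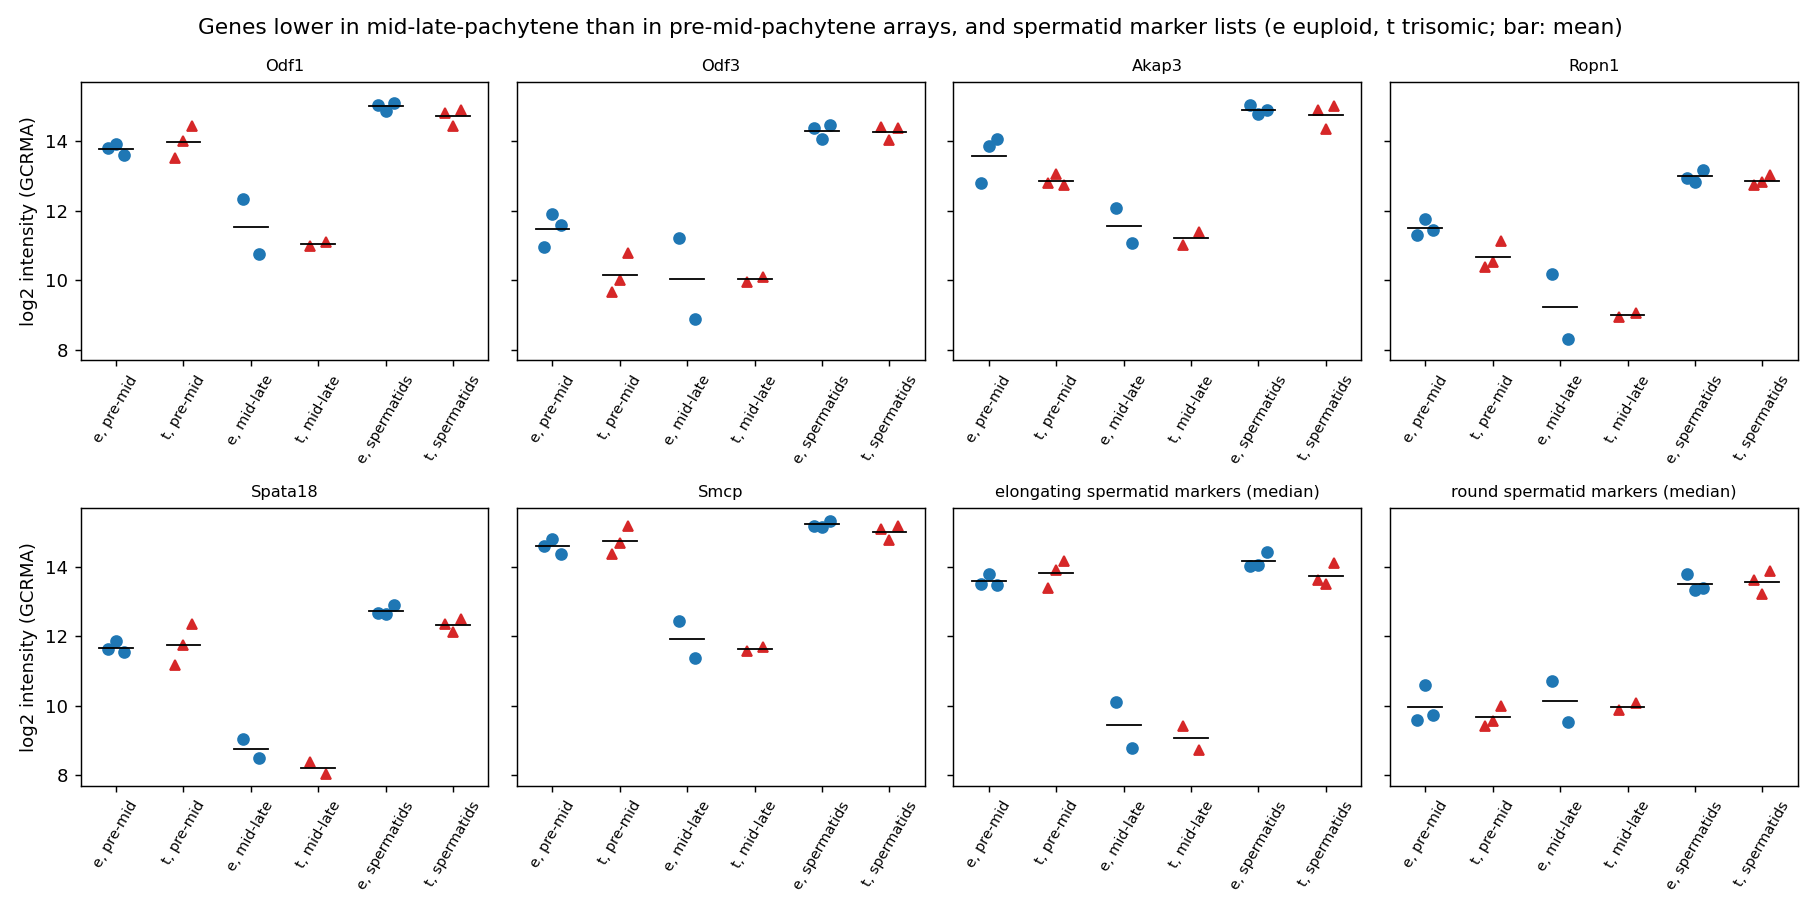
Level (log2 intensity) of the 6 genes that were lower in mid-late-pachytene than in pre-mid-pachytene euploid arrays, and the median level of 2 lists of spermatid markers, in the 3 germ cell stages. Blue circles are euploid arrays, red triangles trisomic arrays and bars group means. By group mean the 6 genes and the elongating spermatid markers are lowest in the mid-late-pachytene groups, while the round spermatid markers are highest in spermatids. For Odf3 the arrays of the pachytene stages overlap in both genotypes, and the trisomic means are 10.14 and then 10.02.

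Trisomic and euploid males differed in these genes in pre-mid-pachytene spermatocytes. There 11 of the 36 genes (30.6%) were called, against 10.3% of the 8384 genes tested, with 3 higher in trisomic arrays (8.33%, against 5.88% of all genes tested) and 8 lower (22.2%, against 4.46%). The median change was -0.19 for the 36 genes and 0.11 for all genes tested. The 8 lower genes were Catsper1, Catsper3 and Kcnu1 among the channels, Tekt2 and Tekt5 among the tektins, and Odf3, Spag6 and Dnaic2. The 3 higher genes were the inner-arm heavy chain Dnah1, the outer-arm intermediate chain Dnaic1 and Tsga10. Each role thus held at most 3 genes lower in trisomic arrays, and among the 3 fibrous sheath genes 0 were called, with Akap3 at -0.71 (SE 0.29, limma adjusted p = 0.121) and, without the first euploid array, at -1.10 (limma adjusted p = 0.0151).

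The upstream sequence of the genes that were lower is shown because RFX factors, which drive cilium genes in many animals, bind a motif called the X-box. RefSeq promoters on the mouse build GRCm38.p6 were matched for 32 of the 36 genes, and for 6 of the 8 lower ones, not for Catsper1 or Kcnu1. Each line gives the 250 bases before the annotated start, 5′ to 3′ on the strand of the gene. Capitals mark the X-box core GTTGCC or its reverse complement GGCAAC. Only exact matches are marked, so variants of the motif stay in lower case. The windows are chr4:126325689-126325938 on the minus strand for Tekt2 (the first of 3 entries) and chr16:10395456-10395705 on the minus strand for Tekt5. On the plus strand lie chr7:140847666-140847915 for Odf3, chr11:114727169-114727418 for Dnaic2, chr13:55784329-55784578 for Catsper3 and chr2:18698772-18699021 for Spag6.
Tekt2: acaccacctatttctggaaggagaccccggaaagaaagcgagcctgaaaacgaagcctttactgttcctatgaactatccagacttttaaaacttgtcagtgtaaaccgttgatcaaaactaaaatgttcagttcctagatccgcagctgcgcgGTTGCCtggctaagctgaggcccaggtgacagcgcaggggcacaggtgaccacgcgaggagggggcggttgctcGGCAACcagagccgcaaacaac
Tekt5: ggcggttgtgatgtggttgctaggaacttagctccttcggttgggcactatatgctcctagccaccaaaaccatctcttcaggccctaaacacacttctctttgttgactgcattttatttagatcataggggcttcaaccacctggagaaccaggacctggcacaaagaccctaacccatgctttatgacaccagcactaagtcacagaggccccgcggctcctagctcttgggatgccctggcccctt
Odf3: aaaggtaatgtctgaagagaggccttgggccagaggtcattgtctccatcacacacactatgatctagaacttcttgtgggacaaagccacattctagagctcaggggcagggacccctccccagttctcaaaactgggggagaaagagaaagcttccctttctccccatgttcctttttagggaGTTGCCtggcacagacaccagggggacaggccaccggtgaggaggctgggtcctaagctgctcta
Dnaic2: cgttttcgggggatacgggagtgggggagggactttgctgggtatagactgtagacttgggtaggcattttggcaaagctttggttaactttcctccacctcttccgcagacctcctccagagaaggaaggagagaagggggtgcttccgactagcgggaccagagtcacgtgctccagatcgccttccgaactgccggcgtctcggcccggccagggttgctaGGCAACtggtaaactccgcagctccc
Catsper3: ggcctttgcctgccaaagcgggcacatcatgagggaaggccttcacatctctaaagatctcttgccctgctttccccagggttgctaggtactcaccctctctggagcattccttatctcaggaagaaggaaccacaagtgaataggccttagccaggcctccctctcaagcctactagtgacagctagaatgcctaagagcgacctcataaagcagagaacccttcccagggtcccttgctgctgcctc
Spag6: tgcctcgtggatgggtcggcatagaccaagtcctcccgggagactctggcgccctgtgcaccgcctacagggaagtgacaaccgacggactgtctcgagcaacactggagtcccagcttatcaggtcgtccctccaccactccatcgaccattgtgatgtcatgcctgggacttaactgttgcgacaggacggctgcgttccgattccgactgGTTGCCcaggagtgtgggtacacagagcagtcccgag
The core stood in 4 of these 6 genes, with its first base 96 and 22 bases before the start of Tekt2, 65 before that of Odf3, 26 before that of Dnaic2 and 37 before that of Spag6. Among all 32 matched genes 10 (31.2%) held it in any of their promoter entries, namely these 4 and Hydin, Ift27, Iqcg, Ropn1l, Spag16 and Tekt1. By the same count 11.8% of the 27025 genes of the table held it. Counted by entry, it was in 11 of 42 entries of the tail genes (26.2%) and in 10.4% of all 32851 entries. The 50 bases after the start were not searched. The cAMP response element TGACGTCA, which reads the same on both strands, was in 0 of the 32 genes and in 1.77% of all genes. A match of letters describes the window and shows no binding.

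Catsper3 and Kcnu1, both ion channel genes, had the largest differences. Kcnu1, the sperm potassium channel that acts with CatSper, had 7.33, 7.92 and 7.91 in the euploid and 5.42, 5.66 and 6.58 in the trisomic pre-mid-pachytene arrays. Every trisomic array was below every euploid one. The change was -1.83 (SE 0.25, limma adjusted p = 0.000854), a 3.55-fold lower level.

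Catsper3 had 7.05, 8.31 and 8.32 against 5.35, 6.39 and 6.09. The first array of each genotype was the lowest of its group, and the groups did not overlap at a change of -1.95 (SE 0.48, limma adjusted p = 0.0181). Catsper1 had 7.40, 8.93 and 8.23 in euploid and 6.76, 6.93 and 7.18 in trisomic arrays. Its groups were separated by a narrow gap, and the change was -1.23 (SE 0.38, limma adjusted p = 0.0455). Catsper2 and Adcy10 were not called, at -0.20 (SE 0.17) and -0.10 (SE 0.18).

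Among the structural genes, Tekt2 had 9.60, 10.59 and 10.46 in euploid and 8.87, 8.79 and 9.47 in trisomic arrays, a change of -1.18 (SE 0.24, limma adjusted p = 0.00743). Its highest trisomic array lay just under the lowest euploid one. Tekt5, a tektin of the sperm tail, had 7.06, 8.18 and 7.80 against 5.98, 6.85 and 6.94, a change of -1.09 (SE 0.25, limma adjusted p = 0.0134). Those groups did not overlap either, by a margin smaller than the spread within each. The other 3 tektins were not called and ranged from -0.62 for Tekt3 to -0.14 for Tekt1.

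Odf3 had 10.96, 11.89 and 11.57 in euploid and 9.65, 10.00 and 10.78 in trisomic arrays, a change of -1.33 (SE 0.40, limma adjusted p = 0.0419). Trisomic values were all below the euploid ones, the nearest pair being close. The other outer dense fibre genes, Odf1, Odf2 and Odf4, lay between 0.05 and 0.21 and were not called, and the first 2 were at -0.04 and -0.14 after quantile normalization. Spag6, a central pair protein, had 9.31, 9.86 and 9.61 against 7.95, 8.36 and 8.78, a change of -1.23 (SE 0.36, limma adjusted p = 0.0360). The groups did not overlap. Spag6 has a close copy, Spag6l, on the array, and how far their probes share signal is unknown here. Dnaic2 had 6.52, 6.40 and 6.78 against 5.59, 5.49 and 5.71, with little spread in either group and a change of -0.97 (SE 0.20, limma adjusted p = 0.00713).

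Dnah1, Dnaic1 and Tsga10 were higher in trisomic arrays. Dnah1 had 7.39, 7.63 and 7.84 in euploid and 8.38, 8.41 and 7.998 in trisomic arrays, a change of 0.64 (SE 0.17, limma adjusted p = 0.0232) without overlap. Dnaic1 had 6.73, 7.53 and 6.997 against 7.65, 7.65 and 7.59, a change of 0.54 (SE 0.17, limma adjusted p = 0.0449). One euploid array of Dnaic1 came close to the trisomic group. Tsga10 had 5.57, 6.95 and 5.66 against 7.20, 6.76 and 7.34, a change of 1.04 (SE 0.29, limma adjusted p = 0.0294). Its second euploid array was above the lowest trisomic one, so these groups overlapped.

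**Figure D3:**
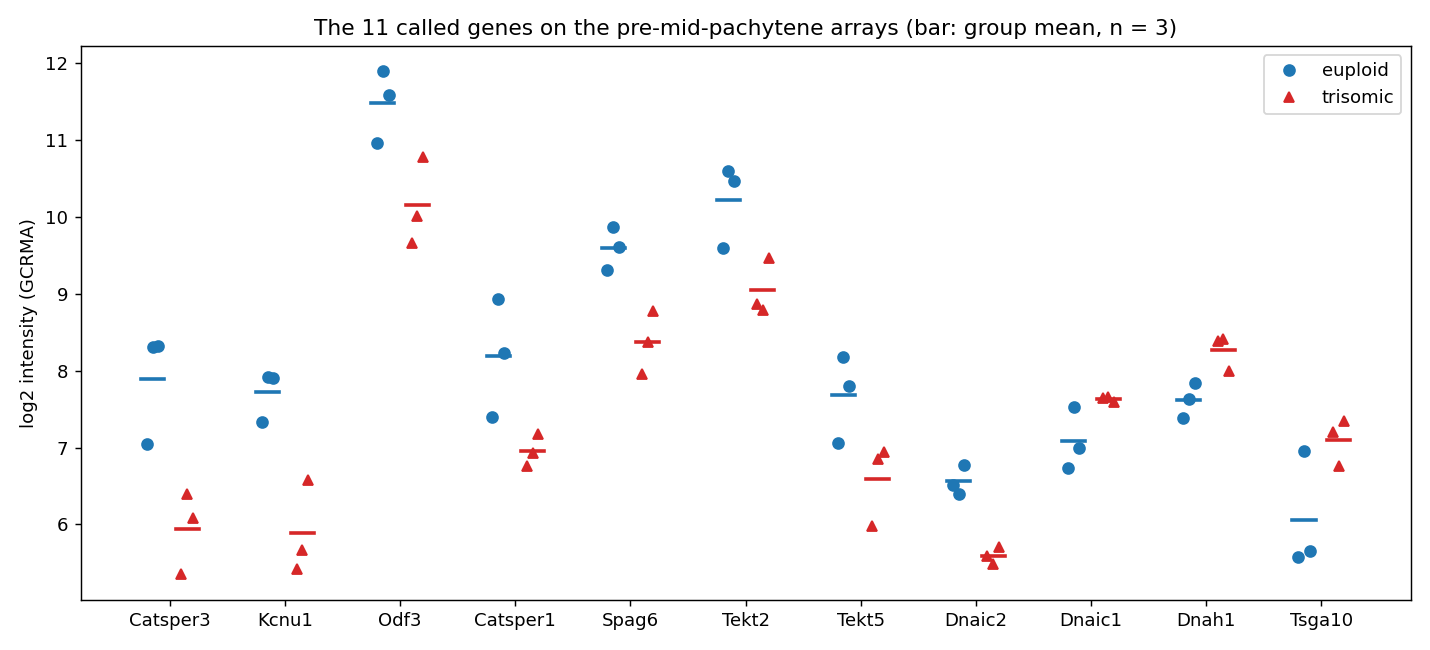
Level (log2 intensity) of the 11 called genes on the 3 euploid (blue circles) and 3 trisomic (red triangles) pre-mid-pachytene arrays, ordered by change, with bars for group means. For the 8 genes on the left every trisomic array is below every euploid array, and Tsga10 on the right is the gene whose groups overlap. The genes were chosen by their call on these same arrays, so their separation adds no further evidence. The share of all genes without overlap is not given here.

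Most of these calls depended on single arrays. The count of 11 became 8, 8 and 4 without the first, the second or the third euploid array, and 3, 6 and 8 without the first, the second or the third trisomic array. Kcnu1, Tekt2 and Dnaic2 were called in each of these 6 fits. A fit of the pre-mid-pachytene arrays alone called 0 of the 36 genes and 4 of all genes tested. That fit has fewer degrees of freedom and takes its spread from these arrays only. The main fit also drew on groups where these genes varied less. Their median SD was 0.13 in euploid and 0.11 in trisomic liver, against 0.27 and 0.29 in the euploid and trisomic pre-mid-pachytene groups. Which of these lowered the count was not tested. Without the filter on low means 7 were called.

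Marker lists were also set beside the trisomic minus euploid comparison at this stage, and were not tested against each other. Of 10 round spermatid markers 2 were lower in trisomic arrays, against 4.46% of all genes tested, and 0 were higher. The median change over the 10 was -0.35, against 0.09 over the 9 elongating spermatid markers tested. Acrv1, an acrosomal protein gene, had 10.43, 11.40 and 11.01 in euploid and 8.92, 9.15 and 9.81 in trisomic arrays, a change of -1.65 (SE 0.31, limma adjusted p = 0.00398). Sun5, a gene of the head-to-tail junction, changed by -2.00045 (SE 0.39, limma adjusted p = 0.00528). Neither gene's groups overlapped. The summed level of the round spermatid list, as log2, was 13.55 to 14.15 in euploid and 12.99 to 13.59 in trisomic arrays, ranges that overlap slightly. Among the markers tested, 0 of 9 early meiotic, 0 of 10 pachytene, 0 of 9 elongating spermatid and 0 of 4 Sertoli cell markers were called. Of all genes tested 10.3% were called, so a count of 0 in lists this short is close to the background. Of 3 ciliated epithelium markers tested 1 was lower, Fam183b (-1.40, SE 0.40, limma adjusted p = 0.0341), and that list summed to 11.18 to 11.53 in euploid and 10.86 to 10.95 in trisomic arrays. The elongating spermatid list summed to 17.31 to 17.57 in euploid and 17.18 to 17.73 in trisomic arrays. The part of a different mix of cells in the 11 calls was not tested.

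At the later stages no difference between the genotypes was called in these genes. Few genes of any kind were called there, so a count of 0 among 36 is close to the background. In mid-late-pachytene spermatocytes 0 of 36 genes were called by limma, against 0.965% of the 8085 genes tested. An unadjusted p under 0.05 was seen for 2 of the 36, and for 619 of the 8085. The lowest adjusted p belonged to Dnali1, a light intermediate chain of inner dynein arms. It had 11.33 and 10.87 in euploid and 11.56 and 11.70 in trisomic arrays, a change of 0.53 (SE 0.17, limma adjusted p = 0.238). Dnali1 was called without the first euploid array (0.76, limma adjusted p = 0.0410), and Odf1 without the second (-1.29, limma adjusted p = 0.0368). Tekt5 (-0.67, SE 0.31, limma adjusted p = 0.626) and Spata18 (-0.55, SE 0.27, limma adjusted p = 0.696) came next.

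In spermatids 0 of 36 were called by limma, against 0.821% of the 8283 genes tested. An unadjusted p under 0.05 was seen for 0 of the 36, and for 720 of the 8283. For 35 of the 36 genes the 95% interval of the change lay within 1 log2 unit of 0, against 25 in mid-late-pachytene and 24 in pre-mid-pachytene spermatocytes. The exception was Catsper3, with a lower bound of -1.23. Catsper2 (0.31, SE 0.17, limma adjusted p = 0.684), Spata18 (-0.41, SE 0.22, limma adjusted p = 0.693) and Tekt4 (0.39, SE 0.22, limma adjusted p = 0.708) had the lowest adjusted p and did not pass.

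Kcnu1 was the gene whose genotype difference itself differed between stages by the test. Its trisomic and euploid spermatid arrays had 12.16, 12.26 and 11.999 against 12.02, 11.83 and 12.12, which overlap. The difference in spermatids exceeded that in pre-mid-pachytene spermatocytes by 1.98 (SE 0.36, 95% interval 1.22 to 2.74, limma adjusted p = 0.0399), where 0.194% of the 8774 genes tested were called. In mid-late-pachytene spermatocytes it had 9.10 and 9.14 against 9.37 and 8.49. The same contrast against that stage gave 2.02 (SE 0.40, limma adjusted p = 0.0535). There 0 of the 36 genes were called, against 0.140% of 8596 genes. An unadjusted p under 0.05 was seen for 8 of the 36, and for 1082 of the 8596. Dnaic2 (1.13, SE 0.28, limma adjusted p = 0.0890) and Tekt2 (1.30, SE 0.35, limma adjusted p = 0.102) came next in the contrast with spermatids and did not pass. Both contrasts use the same pre-mid-pachytene arrays.

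The stage contrasts rested on single arrays as well. The Kcnu1 call against spermatids was lost in 9 of 19 alternative fits, with values from 1.75 to 2.33 and limma adjusted p up to 0.114. Those were the fit of the compared groups only, the fits without any 1 of the 3 trisomic spermatid arrays, without the first or the second euploid spermatid array, without the third euploid pre-mid-pachytene array, and without the first or the second trisomic pre-mid-pachytene array. Dnaic2 was called in its place without the second euploid spermatid array (1.38, limma adjusted p = 0.0431). Tekt2 was called beside it without the first euploid (1.61, 0.0216) or the third trisomic pre-mid-pachytene array (1.51, 0.0322), and Tsga10 without the second euploid one (-1.55, 0.0255). Against mid-late-pachytene spermatocytes 6 genes were called without the first euploid array of that stage: Kcnu1, Tekt2, Spag6, Odf3, Dnali1 and Catsper3, with changes from 1.02 for Dnali1 to 2.72 for Catsper3. Leaving out the first euploid pre-mid-pachytene array called 2 genes, the second 3 and the third trisomic one 1, Kcnu1 among them each time.

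**Figure D4:**
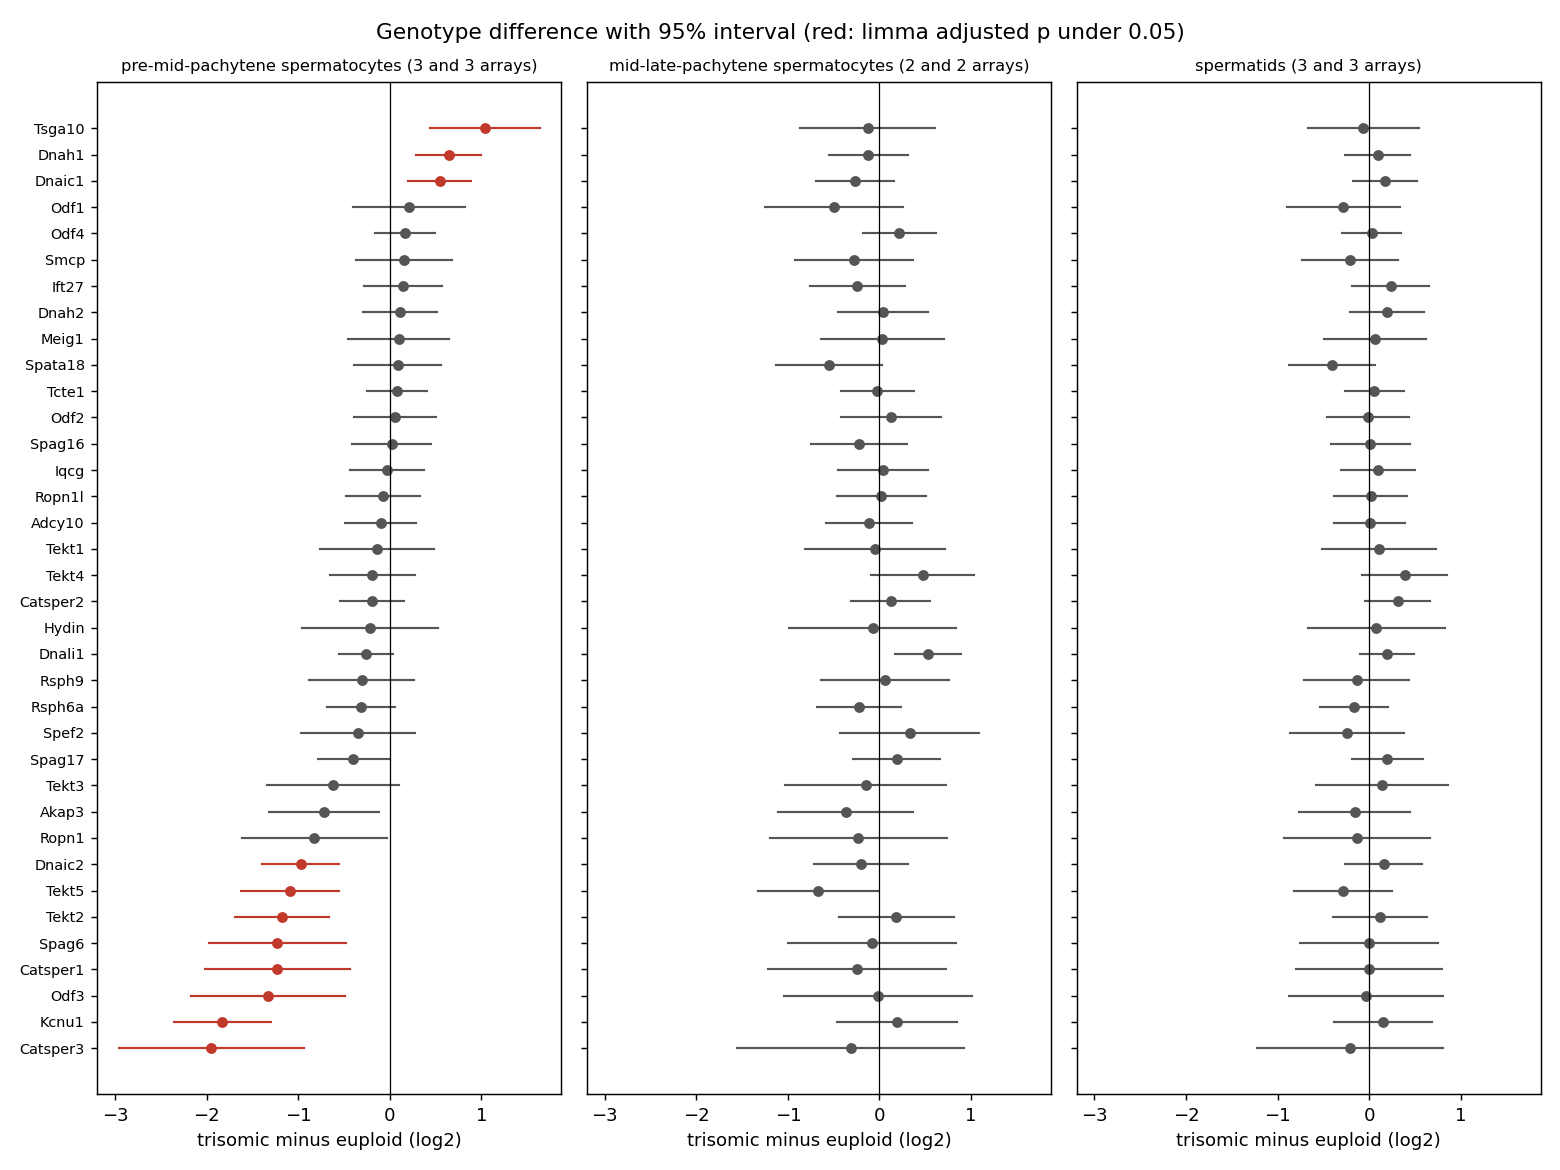
Trisomic minus euploid difference (log2, horizontal axis) of the 36 genes in the 3 germ cell stages, ordered by the difference in pre-mid-pachytene spermatocytes. Points are estimates, lines 95% intervals, and red marks a limma adjusted p under 0.05. Red points are in the pre-mid-pachytene panel alone, and in spermatids all but Catsper3 keep their interval within 1 of 0. Of all genes tested, 10.3%, 0.965% and 0.821% were called at the 3 stages.

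Genes near the rearranged chromosomes were looked at by themselves. Tekt4 is the 1 member within the segment taken as trisomic. In pre-mid-pachytene spermatocytes it had 8.11, 9.13 and 9.05 in euploid and 8.23, 8.49 and 8.99 in trisomic arrays, which overlap. In mid-late-pachytene spermatocytes Tekt4 had 12.15 and 12.31 against 12.73 and 12.68, and in spermatids 14.18, 13.96 and 14.01 against 14.50, 14.31 and 14.51. All trisomic arrays were above all euploid ones at those 2 stages, with changes of 0.47 (SE 0.27, 95% interval -0.09 to 1.04) and 0.39 (SE 0.22, 95% interval -0.07 to 0.85) that did not pass, and the change at the first stage was -0.19 (SE 0.22).

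Tcte1 and Rsph9 lie on chromosome 17 beyond that segment. Tcte1 had 4.36, 4.32 and 4.66, then 10.53 and 10.56, then 11.03, 10.56 and 11.05 in trisomic germ cells, and its changes of 0.08, -0.02 and 0.06 (SE 0.15 to 0.19) were not called. Rsph9, a radial spoke head protein, had 8.33, 8.74 and 9.06 in euploid against 8.43, 8.44 and 8.34 in trisomic pre-mid-pachytene arrays, 14.03 and 13.19 against 13.84 and 13.50 at the next stage, and 13.39, 13.46 and 13.50 against 13.53, 13.40 and 13.02 in spermatids. The genotypes overlapped at all 3 stages.

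Tekt5, Iqcg and Ropn1 lie on chromosome 16. After its call in pre-mid-pachytene spermatocytes, Tekt5 had 11.10 and 11.40 against 10.75 and 10.41 in mid-late-pachytene spermatocytes and 11.59, 11.46 and 11.94 against 11.46, 11.32 and 11.36 in spermatids, so that the trisomic arrays were the lower ones at both stages, although the nearest arrays in spermatids were equal to the decimals given. Its changes of -0.67 (SE 0.31) and -0.29 (SE 0.25) at these stages were not called. Iqcg, a calmodulin-binding subunit of the nexin-dynein complex, had 7.94, 8.24 and 8.07 against 8.08, 8.01 and 8.09 at the first stage, a change of -0.03 (SE 0.19). Its later changes were 0.04 (SE 0.23) and 0.10 (SE 0.19). Ropn1 had 11.31, 11.76 and 11.43 against 10.36, 10.53 and 11.13 in pre-mid-pachytene spermatocytes. Those arrays did not overlap, yet the change of -0.83 (SE 0.38, limma adjusted p = 0.174) did not pass.

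Liver expressed few of these genes. Catsper2, Hydin, Ropn1l and Ift27 had a mean high enough to be tested there. Ropn1l, a ropporin relative also found in cilia, had 10.95, 10.20 and 10.15 in euploid and 11.55, 11.87 and 11.26 in trisomic liver. All trisomic arrays were higher, with a change of 1.13 (SE 0.18, limma adjusted p = 0.000711, fold 2.18), where 9.55% of the 8180 genes tested were called and 5.77% were higher. Ropn1l was called without each array in turn and missed the threshold in a fit of the liver arrays alone. Ift27 had 8.99, 8.96 and 8.70 against 9.50, 9.54 and 9.29, a change of 0.56 (SE 0.20, limma adjusted p = 0.0853) that did not pass although its groups did not overlap. In the first euploid liver array the protamine gene Prm1 was at 7.09, while the other 5 liver arrays had it between 2.74 and 2.97. Without that array the change of Ropn1l was 1.38 (limma adjusted p = 2.12e-05).

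Further axoneme, sheath, transport and motility genes, 100 of them on the array, were set beside the list. Between the pachytene groups 72 of 92 tested (78.3%, against 42.3% of all genes tested) were higher and 8 (8.70%, against 36.3%) lower, led by Wdr66 (6.51), the dynein heavy chain Dnah6 (6.49), Cfap52 (6.36) and Drc1 (6.27). From there to spermatids 58 of 95 changed, 61.1% against 64.5% of all genes tested, a share close to the background. Of these, 39 were higher and 19 lower, with the largest changes in Lrrc52 (6.37), an auxiliary subunit of the KCNU1 channel, Septin4 (4.59), Spag4 (4.33) and Dnaaf6 (-4.31). The dynein heavy chains among them differed at that step: Dnah8 (-1.08) and Dnah12 (-1.02) fell, Dnah9 (3.58) rose and Dnah6 was at -0.57 (SE 0.42), not called. In trisomic pre-mid-pachytene spermatocytes 13 of 90 were called, 14.4% against 10.3% of all genes tested. Of these 11 were lower (12.2%, against 4.46%) and 2 higher (2.22%, against 5.88%), and the median change over the 90 was 0.06. The largest changes were those of Akap14 (-1.63, SE 0.42), Efcab9 (-1.47, SE 0.35), a calcium sensor of the CatSper complex, Dnah6 (-1.34, SE 0.38) and Septin4 (-1.28, SE 0.36), a protein of the sperm annulus. In mid-late-pachytene spermatocytes 0 of 94 and in spermatids 0 of 95 were called by limma, against 0.965% and 0.821% of all genes tested. An unadjusted p under 0.05 was seen for 1 and 3 of them, and for 619 of 8085 and 720 of 8283 genes tested. In liver 4 of 24 were higher in trisomic arrays (16.7%, against 5.77% of all genes tested), among them the transport gene Ift140 (1.71, SE 0.28) within the segment taken as trisomic, Dnaaf5 (1.15), Ift74 (0.95) and Ift80 (0.77).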

How the data were processed

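Log2 values were used as deposited by the authors, 1 row per probe set and 22 arrays without missing values. The authors made these log2 values with GCRMA, per the submitters' processing notes, which subtracts background, sets arrays to a common distribution and summarises probes. Its version and the arrays normalized together are not given in the sources used here. Labelling used 20 to 30 ng of RNA and 2 amplification cycles, per the labels' protocols. Of 16539 probe sets, 759 had no gene symbol and were left out.

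One model, with a mean for each of the 8 groups over all 22 arrays, was fitted with limma 3.58.1 in R 4.3.3, with contrasts of group means, interaction contrasts for stages, 2-sided tests and Benjamini-Hochberg adjustment over all genes tested. Alternatives were no filter, a minimum mean of 6, quantile normalization, centring, trend and robust spread, the compared groups only, the replicate number as a block, each array left out and, added after seeing the data, trisomic arrays for the stage steps. The code was tested on simulated data. Promoters were searched with python 3.11.15. Precision is limited by the number of arrays.

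Values on every array are given for up to 8 called genes of largest change per genotype comparison, up to 4 rises and 4 falls per stage step, and members on chromosome 16 or 17. The 3 lowest adjusted p are named where 0 were called, and up to 4 called genes among the further flagellum genes. Other genes with array values, among them Dnah1, Dnaic1 and Prm1, were added after their values were seen. Members, further genes, marker lists and alternatives were chosen with earlier results of these data known.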

Additional observations from a re-analysis of the deposited data

Results flagged for a closer look

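Kcnu1 met the rule for a genotype difference that differs between 2 stages. The trisomic minus euploid difference of spermatids exceeded that of pre-mid-pachytene spermatocytes by 1.98 on the log2 scale (limma interaction contrast, adjusted p = 0.0399). The groups compared held 3 arrays each, and all 3 trisomic pre-mid-pachytene arrays were below all 3 euploid ones.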

How the results depend on the processing

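The stage counts stayed within 1.5 times their values under every alternative run, with 32 to 36, 20 to 24 and 30 to 36 genes called at the 3 steps. The other counts moved more. In pre-mid-pachytene spermatocytes 11 genes became 7 without the filter on means, 0 with the compared groups only, and 3 to 8 when 1 array was left out. In liver 1 became 0 with the compared groups only. In mid-late-pachytene spermatocytes 0 became 0 to 1 when 1 array was left out. The interaction against mid-late-pachytene spermatocytes went from 0 to 1 without the filter, to 1 after quantile normalization, to 1 after centring, and to 0 to 6 with 1 array left out. The interaction against spermatids went from 1 to 0 with the compared groups only and to 0 to 2 with 1 array left out. Where an array was left out of a pair, the remaining one was taken to vary like the other groups. The cause of these moves was not tested.

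Centring each array on its median moved the median of all genes by 0.51, -0.30 and 0.21 at the 3 stage steps and quantile normalization by -0.16, -0.14 and -0.26. Smcp, called at 0.63 between pre-mid-pachytene spermatocytes and spermatids, was at -0.01 after quantile normalization. It did not pass without the third euploid spermatid array (0.57) or without the first (0.63) or the third (0.51) euploid pre-mid-pachytene array.

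Replicate numbers are shared by the groups. Deviations of same-numbered euploid and trisomic pre-mid-pachytene arrays correlated across genes with r from -0.13 to 0.19. The highest r between the genotypes were 0.36 for the second spermatid arrays and 0.24 for the second liver arrays. Whether the numbers pair the arrays cannot be settled from these values. With the replicate block 8 genes were called in pre-mid-pachytene spermatocytes in place of 11, 1 in liver, 0 in spermatids and 0 in mid-late-pachytene spermatocytes. An average over probe sets of 1 gene was not run, because each symbol had 1 probe set. With 2 arrays a group, the 95% intervals of the mid-late-pachytene changes had a median width of 0.60 on each side.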
